A study of Homo sapiens with 6 samples.

Results

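The interleukin-1 family was followed in ME180 cells, an established human line of cervical epidermoid carcinoma, through 10 genes picked by name: the ligands IL1A, IL1B, IL36G, IL36B, IL18 and IL33, the receptor antagonists IL1RN and IL36RN, and the receptors IL1R1 and IL1R2. They are 10 of the 18358 genes in the deposited table, and each name matched 1 row. Members of this family are alarm signals of barrier epithelia. IL-1α and IL-1β both bind the signalling receptor IL1R1, which pairs with the accessory chain IL1RAP and acts through MYD88 and IRAK kinases on NF-kB and MAP kinases, while IL1R2 is a decoy receptor that binds ligand without signalling. The antagonist encoded by IL1RN occupies IL1R1, and the one encoded by IL36RN occupies the IL-36 receptor IL1RL2. Squamous epithelia are known to hold stores of IL-1α and IL-18 and of an intracellular form of the IL-1 receptor antagonist.

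VPS13C knockout cells carried a single-guide construct against VPS13C, labelled sgVPS13C, and their controls carried a vector. VPS13C encodes a lipid transfer protein of membrane contact sites. All cells, knockout and vector, had been given the platinum drug cisplatin at 2 µM for 48 h, and 3 libraries were made from each group, so differences are those between cisplatin-treated populations. Whether the knockout line is clonal or pooled, and whether replicates were separate cultures, is not in the labels, so p-values rest on a spread between libraries that may be technical only.

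Total counts were 14774065 to 15411001 in the knockout libraries and 15767003 to 15799149 in the vector libraries. VPS13C itself had 28.6, 18.6 and 23.7 CPM (counts scaled to library size) in knockout replicates 1 to 3, against 48.1, 30.1 and 35.0 CPM in vector replicates 1 to 3. The groups did not overlap, but the log2 fold change of −0.67 (standard error 0.22) missed the threshold (edgeR quasi-likelihood adjusted p = 0.0513), and knockout cells still held VPS13C RNA. Without knockout replicate 1 it was −0.85 (edgeR adjusted p = 0.0482) and without vector replicate 2 it was −0.82 (edgeR adjusted p = 0.0378). Each of these fits left out the library of its group that was nearest to the other group. All 9 markers of squamous epithelium passed the filter on low counts. Of these, 4 rose (KRT5, KRT14, KRT6A and DSG3), EPCAM fell (log2 fold change −0.72) and 4 were not called, with KRT17 (−0.23) and CDH1 (−0.13) lower. Their summed level was 19627 to 24073 CPM in knockout libraries and 12161 to 15676 CPM in vector libraries, of which KRT5 made up 11761 and 6401 CPM on average.

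Markers of other cell types were low, with exceptions that differed between the groups. Of 7 myeloid markers in the table, 4 were tested and 2 fell, CD68 with 43.4 and 78.5 CPM on average in knockout and vector libraries and ITGAM with 0.131 and 0.881 CPM, and the list summed to between 43.4 and 47.5 CPM in knockout libraries and between 74.6 and 89.3 CPM in vector libraries. ITGAM lost its call without knockout replicate 3 (log2 fold change −2.63, edgeR adjusted p = 0.0579). The defining leukocyte marker PTPRC had 0 counts in the knockout libraries together and 1 in the vector libraries together, and the monocyte marker CD14 had 10 and 8. Of 4 lymphoid markers none was tested, and MS4A1 was at 0 in all libraries. Of 5 fibroblast markers 2 were tested and DCN rose (3.78 and 0.188 CPM), with sums of 47.0 to 50.3 CPM in knockout and 37.0 to 44.2 CPM in vector libraries, mostly COL1A1. Of 4 endothelial markers 2 were tested, VWF rose (22.6 and 5.68 CPM) and CDH5 fell (0.152 and 2.27 CPM), with sums of 21.7 to 24.8 CPM in knockout and 8.0 to 8.37 CPM in vector libraries. ITGAM and CDH5 passed the filter through the vector group only and DCN through the knockout group only. The part of these markers in the results that follow was not tested.

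RNA of the agonists IL-1α, IL-1β and IL-36γ and of the decoy receptor was lower in knockout cells, while that of the antagonists was not. IL1A, IL1B, IL36G and IL1R2 fell 2.67-fold, 4.96-fold, 3.58-fold and 7.53-fold, IL18 rose 1.34-fold, and IL1RN, IL36RN and IL1R1 were not called. Of the 10 genes, 8 passed the filter on low counts, and IL33 and IL36B did not. A gene was called at a Benjamini-Hochberg adjusted p under 0.05 over all 13717 genes tested (edgeR quasi-likelihood test). Changes were widespread in this comparison: 35.1% of all tested genes were called, 17.8% higher and 17.4% lower, and 5.71% were called lower by at least 2-fold. In these bulk libraries, fewer cells that express a gene and less RNA per cell cannot be told apart.

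**Figure D1:**
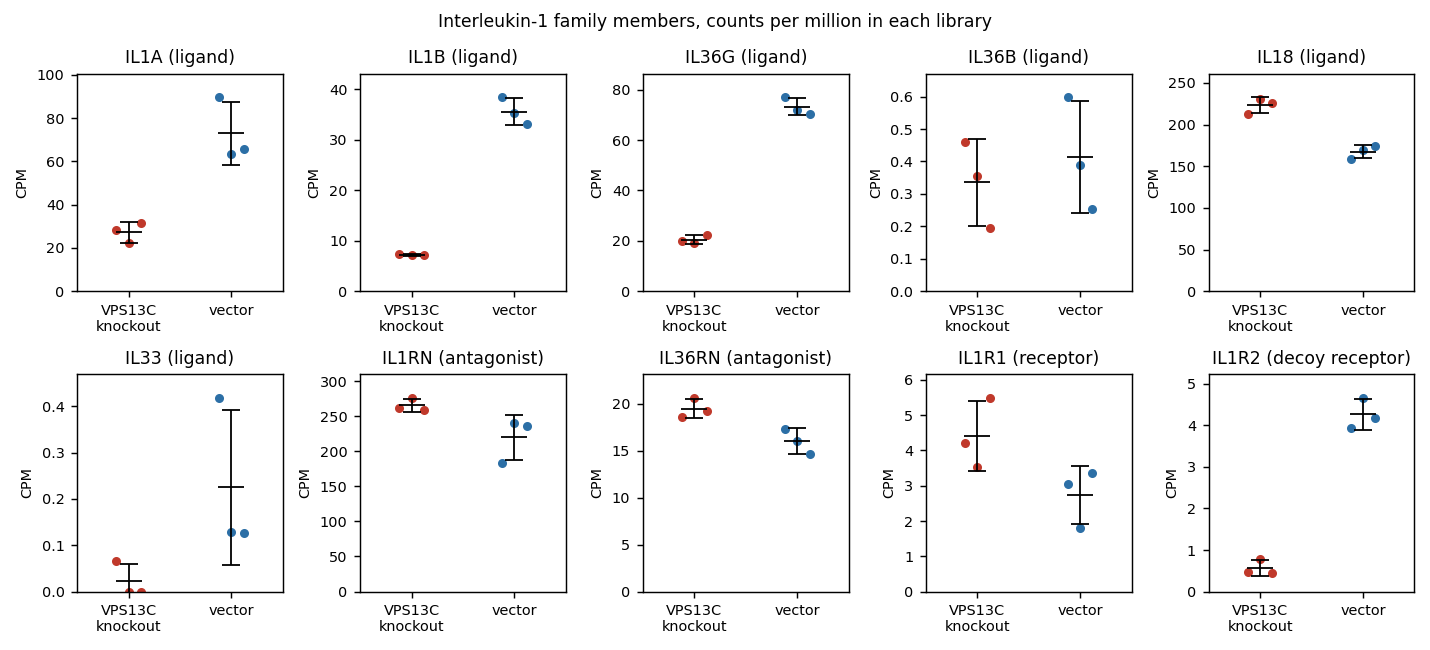
CPM (vertical axis, starting at 0) of the 10 genes in 3 knockout libraries (red) and 3 vector libraries (blue), with the mean and SD as bars. Points of the groups lie apart for IL1A, IL1B, IL36G and IL1R2 (knockout lower) and for IL18, IL1RN, IL36RN and IL1R1 (knockout higher). Those of IL33, too low to be tested, also lie apart (knockout lower), and IL36B overlaps.

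IL1A encodes IL-1α, which is active as a precursor and is released from damaged epithelial cells. It had 28.1, 22.1 and 31.6 CPM in the knockout libraries, against 89.6, 63.3 and 65.7 CPM in the vector libraries. No knockout library reached any vector library, and the highest vector library stood apart from the other two. Knockout libraries averaged 27.2 ± 4.81 CPM and vector libraries 72.9 ± 14.5 CPM (SD, n = 3 each), with a log2 fold change of −1.42 (standard error 0.19, edgeR quasi-likelihood adjusted p = 0.00154).

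IL1B encodes IL-1β, which is made as an inactive precursor and cut by caspase-1. Its values were 7.29, 7.09 and 7.11 CPM in the knockout libraries, against 38.4, 35.2 and 33.1 CPM in the vector libraries. The knockout libraries were nearly equal, and the gap between the groups was many times the spread within either. Knockout libraries averaged 7.16 ± 0.111 CPM and vector libraries 35.5 ± 2.68 CPM (SD, n = 3 each), and the log2 fold change was −2.31 (standard error 0.11, edgeR quasi-likelihood adjusted p = 3.04e-05).

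IL36G encodes IL-36γ, an epithelial agonist of IL1RL2. It had 20.0, 18.9 and 22.3 CPM in the knockout libraries, against 77.0, 72.0 and 70.4 CPM in the vector libraries. Again the groups lay far apart with little spread inside each. Knockout libraries averaged 20.4 ± 1.73 CPM and vector libraries 73.1 ± 3.40 CPM (SD, n = 3 each), and the log2 fold change was −1.84 (standard error 0.11, edgeR quasi-likelihood adjusted p = 6.19e-05).

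IL18 encodes a ligand that, like IL-1β, is cut by caspase-1, and it moved the other way. It had 213, 231 and 226 CPM in the knockout libraries, against 159, 169 and 174 CPM in the vector libraries. The groups did not overlap, but the change was small beside those of the 3 ligands above. Knockout libraries averaged 223 ± 9.39 CPM and vector libraries 167 ± 7.81 CPM (SD, n = 3 each), with a log2 fold change of 0.42 (standard error 0.089, edgeR quasi-likelihood adjusted p = 0.00991). Without knockout replicate 3 the log2 fold change was 0.40 and the call was lost (edgeR adjusted p = 0.0512).

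IL36B, a further IL-36 agonist, and IL33, a nuclear alarmin that signals through IL1RL1, were too low to be tested. IL36B had 7, 5 and 3 counts in the knockout libraries, against 10, 6 and 4 counts in the vector libraries, and the groups overlapped. The ratio of its summed counts, knockout over vector and scaled by effective library size, was 0.802 with a 95% counting interval of 0.382 to 1.65. IL33 had 1, 0 and 0 counts in the knockout libraries, against 7, 2 and 2 counts in the vector libraries. Its ratio was 0.0972 with a 95% counting interval of 0.00226 to 0.669, and both intervals cover counting error only.

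IL1RN encodes the IL-1 receptor antagonist. It had 261, 276 and 259 CPM in the knockout libraries, against 183, 240 and 237 CPM in the vector libraries. All knockout libraries were above all vector libraries, and 1 vector library was much lower than the other two. Knockout libraries averaged 265 ± 9.55 CPM and vector libraries 220 ± 31.7 CPM (SD, n = 3 each), and the log2 fold change of 0.27 (standard error 0.12) was not called (edgeR quasi-likelihood adjusted p = 0.135). With each library's trend on gene length removed, it was 0.32 and was called (edgeR adjusted p = 0.0125).

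IL36RN encodes the IL-36 receptor antagonist. It had 18.6, 20.6 and 19.2 CPM in the knockout libraries, against 17.3, 16.1 and 14.6 CPM in the vector libraries. The groups did not overlap, though the lowest knockout library was close to the highest vector library. Knockout libraries averaged 19.5 ± 1.05 CPM and vector libraries 16.0 ± 1.37 CPM (SD, n = 3 each), and the log2 fold change of 0.28 (standard error 0.11) was not called (edgeR quasi-likelihood adjusted p = 0.0933).

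IL1R2, the decoy receptor, had the largest fold change of the 8 tested genes, at a low level. It had 0.460, 0.780 and 0.453 CPM in the knockout libraries, against 3.95, 4.67 and 4.19 CPM in the vector libraries. Each vector library held several times the level of any knockout library. Knockout libraries averaged 0.564 ± 0.187 CPM and vector libraries 4.27 ± 0.367 CPM (SD, n = 3 each), and the log2 fold change was −2.91 (standard error 0.25, edgeR quasi-likelihood adjusted p = 2.13e-04). These values rest on 25 counts in the knockout libraries together and 204 in the vector libraries together, so IL1R2 passed the low-count filter through the vector group only. The vector level was 7.63 times the knockout level by summed counts, with a 95% counting interval of 5.02 to 12.1.

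IL1R1, the signalling receptor, had 4.21, 3.55 and 5.50 CPM in the knockout libraries, against 3.05, 1.81 and 3.36 CPM in the vector libraries. The groups did not overlap, but the spread within each was wide. Knockout libraries averaged 4.42 ± 0.992 CPM and vector libraries 2.74 ± 0.819 CPM (SD, n = 3 each), and the log2 fold change of 0.69 (standard error 0.27) was not called (edgeR quasi-likelihood adjusted p = 0.0944). In 4 of the 8 tested genes, IL18, IL1RN, IL36RN and IL1R1, every knockout library lay above every vector library. In the 4 that fell, every knockout library lay below. IL33, too low to be tested, also lay below in every knockout library. Across all tested genes the groups did not overlap for 48.5%, with knockout above for 24.5% and below for 24%.

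Promoter windows of these genes were read for motifs of factors that act on inflammatory genes. RefSeq windows on GRCh38.p14, 250 bases before to 50 bases after an annotated start, were found for 8 of the 10 genes, 17 windows in all, and none was found for IL18 or IL36B. They were searched on both strands for AP-1 (TGANTCA), C/EBP (TTGCNNAA), a TATA box (TATAAA) and the 10-letter NF-kB consensus. Shown are the 4 genes that fell and IL1RN, which did not, each by its most upstream window, 5′ to 3′ on the strand of its gene, with matches in capitals.
IL1A, chr2:112784444-112784743, minus strand: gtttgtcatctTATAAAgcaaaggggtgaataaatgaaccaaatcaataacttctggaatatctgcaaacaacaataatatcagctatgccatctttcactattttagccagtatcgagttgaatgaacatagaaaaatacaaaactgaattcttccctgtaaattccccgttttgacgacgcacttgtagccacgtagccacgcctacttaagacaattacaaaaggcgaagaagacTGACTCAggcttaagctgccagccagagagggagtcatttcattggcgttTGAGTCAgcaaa
IL1B, chr2:112836730-112837029, minus strand: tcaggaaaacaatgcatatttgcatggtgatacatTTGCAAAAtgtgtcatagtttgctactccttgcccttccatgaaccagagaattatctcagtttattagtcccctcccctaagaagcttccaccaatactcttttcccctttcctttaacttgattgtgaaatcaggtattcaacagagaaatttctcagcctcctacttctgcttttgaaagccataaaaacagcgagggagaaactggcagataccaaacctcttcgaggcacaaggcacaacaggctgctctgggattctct
IL36G, chr2:112977756-112978055, plus strand: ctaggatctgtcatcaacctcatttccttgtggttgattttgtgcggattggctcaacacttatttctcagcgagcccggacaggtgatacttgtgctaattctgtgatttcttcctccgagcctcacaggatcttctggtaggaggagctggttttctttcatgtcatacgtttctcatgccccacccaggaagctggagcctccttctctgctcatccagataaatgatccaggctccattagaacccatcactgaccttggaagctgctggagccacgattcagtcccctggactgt
IL1R2, chr2:101991710-101992009, plus strand: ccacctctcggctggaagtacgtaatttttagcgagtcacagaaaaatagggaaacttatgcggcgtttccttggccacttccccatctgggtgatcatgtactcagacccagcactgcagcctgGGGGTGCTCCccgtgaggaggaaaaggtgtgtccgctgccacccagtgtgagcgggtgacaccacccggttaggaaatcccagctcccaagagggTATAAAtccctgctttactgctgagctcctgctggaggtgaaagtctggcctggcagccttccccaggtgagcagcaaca
IL1RN, chr2:113117721-113118020, plus strand: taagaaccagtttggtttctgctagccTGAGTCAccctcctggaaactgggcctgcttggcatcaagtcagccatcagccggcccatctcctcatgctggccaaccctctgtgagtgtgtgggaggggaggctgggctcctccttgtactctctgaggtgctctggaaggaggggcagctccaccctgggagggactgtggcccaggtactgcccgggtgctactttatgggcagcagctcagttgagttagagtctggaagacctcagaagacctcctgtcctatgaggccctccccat

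In the IL1A window AP-1 matched at −12 and 38 and the TATA box at −239, counting from 0 at the RefSeq start to the first base of the match. The IL1B window held 1 C/EBP match at −215, and the IL36G window held no match to any of the 4 motifs. The IL1R2 window held an NF-kB match at −125 and a TATA box at −30, and the IL1RN window an AP-1 match at −223. Of the windows not shown, the second of IL1A held both AP-1 matches again and the second of IL1R2 held none. Of the 2 others of IL1RN, 1 held none and 1 held overlapping TATA matches on opposite strands at −32 and −30. Windows of IL36RN held an NF-kB match at 0, and those of IL1R1 a C/EBP match at 34 and TATA matches at −229 and −124. Neither gene was called, and the windows of IL33 held no match. Of 35116 windows of the same length, 7.71% held AP-1, 10.5% C/EBP, 11.5% the TATA box and 11.3% NF-kB. Over the 16042 windows of tested genes the shares were 5.54% for AP-1, 7.76% for C/EBP, 6.81% for the TATA box and 13.4% for NF-kB. No motif was shared by all 4 genes that fell, and AP-1 was matched both in IL1A, which fell, and in IL1RN, which was not called. A match describes letters in this window and is not a measured binding site.

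Levels can be compared between genes on the length-scaled TPM values of the authors. In the knockout libraries the order of means was IL18 (371 ± 42.3 TPM), IL1RN (262 ± 31.2), IL36G (30.8 ± 6.01), IL1A (22.4 ± 6.40), IL36RN (11.7 ± 1.14), IL1B (8.21 ± 1.34), IL1R1 (1.35 ± 0.417), IL1R2 (0.620 ± 0.0917), IL36B (0.540 ± 0.245) and IL33 (0.0167 ± 0.0289; SD, n = 3). In the vector libraries it was IL18 (279 ± 26.5 TPM), IL1RN (216 ± 9.21), IL36G (111 ± 20.0), IL1A (60.6 ± 20.6), IL1B (41.1 ± 8.36), IL36RN (9.76 ± 2.01), IL1R2 (4.92 ± 0.194), IL1R1 (0.870 ± 0.313), IL36B (0.673 ± 0.329) and IL33 (0.153 ± 0.127; SD, n = 3). Neighbours whose libraries overlapped were IL36G with IL1A and IL1R2 with IL36B in knockout cells, and IL1A with IL1B and IL1R1 with IL36B in vector cells.

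The order therefore differed at 2 places, with IL36RN above IL1B and IL1R1 above IL1R2 in knockout cells and the reverse in vector cells. Among all 18358 genes, IL1B stood at rank 8641 by TPM in knockout cells and 3241 in vector cells, and IL36G at rank 4048 and 1301. IL18 stood at rank 387 in knockout cells and 504 in vector cells, and IL1RN at 524 and 663.

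Within each library the antagonist was set against its agonists as a ratio of TPM. The ratio of IL1RN to IL1A plus IL1B was 8.27, 10.5 and 7.57 in the knockout libraries, against 1.54, 2.60 and 2.56 in the vector libraries. Antagonist RNA exceeded agonist RNA in every library, and by more in each knockout library than in any vector library. The mean ratios were 8.80 ± 1.56 and 2.23 ± 0.599 (SD, n = 3 each), a mean log2 difference of 2.00 or 4.01-fold. The exact permutation test (two-sided) had p = 0.1 here and for the other 2 ratios, and 3 libraries against 3 cannot give less.

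The ratio of IL36RN to IL36G plus IL36B was 0.363, 0.427 and 0.344 in the knockout libraries, against 0.0894, 0.0895 and 0.0826 in the vector libraries. Agonist RNA exceeded antagonist RNA in every library of both groups, and the groups did not overlap. The mean ratios were 0.378 ± 0.0436 and 0.0872 ± 0.00398 (SD, n = 3 each), a log2 difference of 2.11 (exact permutation p = 0.1). The ratio of decoy to signalling receptor, IL1R2 to IL1R1, was 0.375, 0.80 and 0.349 in the knockout libraries, against 4.65, 9.22 and 4.95 in the vector libraries. The decoy was the less abundant of the pair in every knockout library and the more abundant in every vector library. The mean ratios were 0.508 ± 0.253 and 6.27 ± 2.55 (SD, n = 3 each), a log2 difference of −3.66 (exact permutation p = 0.1). IL1R2 had only 7, 11 and 7 counts in the knockout libraries and passed the low-count filter through the vector group only. Reads of both receptors were split over transcripts that differed from library to library.

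The agonist sums behind the first ratio show where the difference lay. IL1A plus IL1B came to 35.4, 21.8 and 34.7 TPM in the knockout libraries, against 135, 82.1 and 88.1 TPM in the vector libraries. The groups did not overlap, while the antagonist's own level differed by 1.21-fold in CPM.

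**Figure D2:**
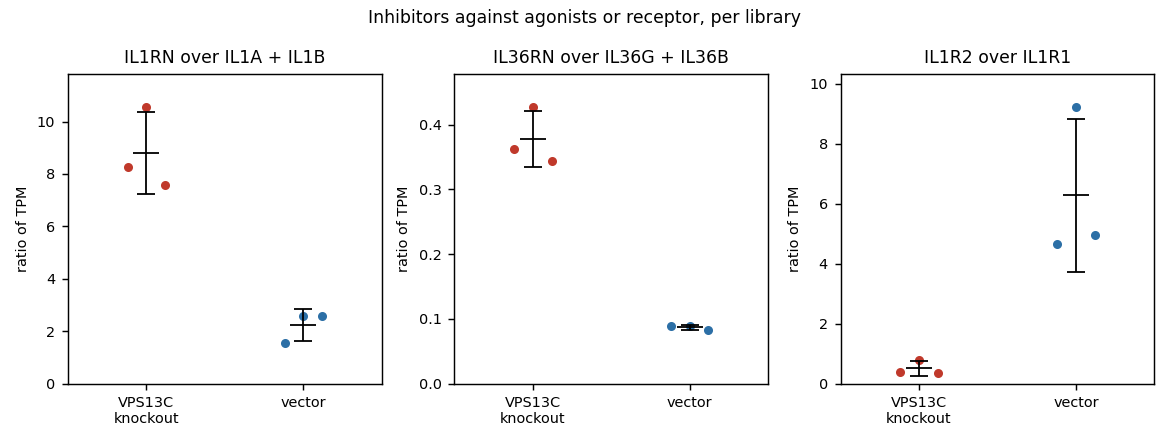
Ratio of TPM (vertical axis, starting at 0) in each knockout library (red) and vector library (blue), with mean and SD. Both antagonist ratios are higher in all 3 knockout libraries, with means of 8.80 and 2.23 for IL1RN and 0.378 and 0.0872 for IL36RN. The decoy ratio is lower, with means of 0.508 and 6.27, and IL1R2 passed the low-count filter through the vector group only.

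A list of 12 further genes of the family was read beside these, as other ligands, receptor chains and binding proteins. Of these, 9 were tested, 2 rose, 1 fell and 6 were not called, with a median log2 fold change of 0.03. The median over all genes tested was 0.0042, with 17.8% called higher and 17.4% lower. IL1RL1, the receptor for IL-33, fell to 1.05, 0.567 and 1.23 CPM in the knockout libraries, against 6.28, 5.64 and 5.08 CPM in the vector libraries (log2 fold change −2.56, standard error 0.26, edgeR quasi-likelihood adjusted p = 4.90e-04). With 16, 8 and 19 counts in the knockout libraries it passed the low-count filter through the vector group only. IL1RL2, the IL-36 receptor, rose to 12.2 ± 0.392 CPM in knockout cells, against 8.82 ± 0.901 CPM in vector cells (SD, n = 3 each, log2 fold change 0.46, edgeR adjusted p = 0.0238). IL18R1, the ligand-binding chain for IL-18, rose to 1.61 ± 0.591 CPM, against 0.689 ± 0.0629 CPM (SD, n = 3 each, 1.23, edgeR adjusted p = 0.0280).

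IL18R1 had 11, 10 and 12 counts in the vector libraries and passed the filter through the knockout group only. Both rises kept their direction when single libraries were left out, but their calls were often lost. IL1RL2 lost its call with library size as the only scaling (0.42, edgeR adjusted p = 0.0580), without knockout replicates 1 or 3 (log2 fold changes 0.44 and 0.47), and without vector replicates 2 or 3 (0.42 in both). IL18R1 lost its call without knockout replicates 1 or 3 (0.95 and 1.19) and without vector replicates 1, 2 or 3 (1.19, 1.18 and 1.30). The edgeR adjusted p of these left-out fits ran from 0.0584 to 0.102.

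IL1RAP, the accessory chain shared by the IL-1, IL-33 and IL-36 receptors, had 55.6, 33.5 and 50.9 CPM in the knockout libraries, against 102, 59.2 and 63.5 CPM in the vector libraries. The groups did not overlap, and its log2 fold change of −0.69 (standard error 0.27) was not called (edgeR quasi-likelihood adjusted p = 0.0876). The ligands IL36A, IL37 and IL1F10, the inhibitory receptor SIGIRR and the IL-18 binding protein IL18BP were not called either. IL18RAP, IL1RAPL1 and IL1RAPL2 were too low to be tested.

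**Figure D3:**
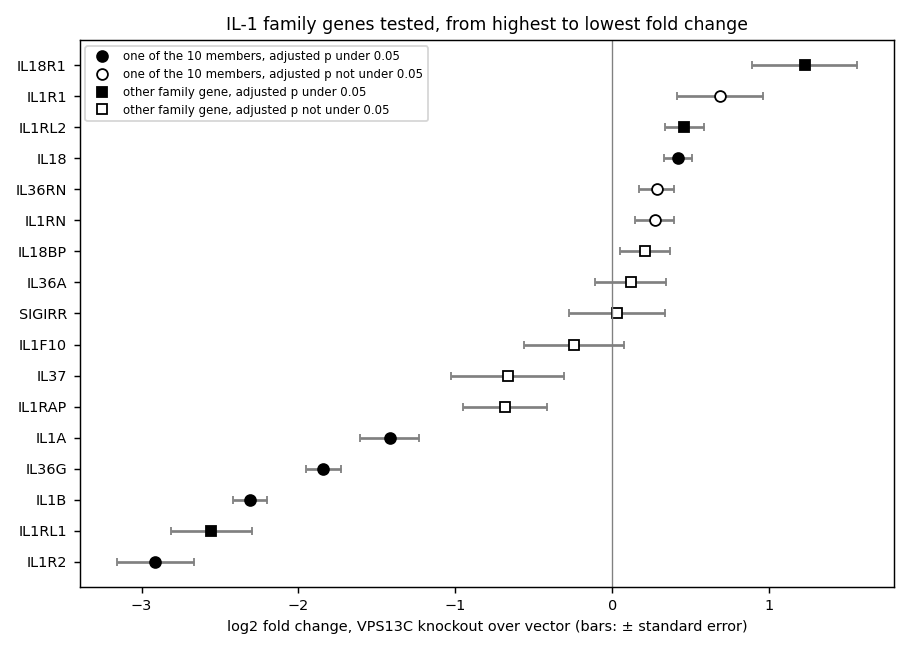
Log2 fold change, knockout over vector (horizontal axis), with standard errors as bars, for the 17 tested genes of the family (8 of the 10 genes as circles, 9 other family genes as squares), filled where called. IL1R2, IL1RL1, IL1B, IL36G and IL1A lie between −2.91 and −1.42, while the called rises, IL18R1, IL1RL2 and IL18, lie between 0.42 and 1.23.

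Inside the cell, the receptors act through a chain of adaptors and kinases. Of 25 listed genes of IL-1 receptor signalling, 24 were tested. Of these, 4 rose, 1 fell and 19 were not called, with a median log2 fold change of 0.07. Among all tested genes 17.8% were called higher and 17.4% lower. PELI2, a ubiquitin ligase of the pathway, rose to 104 ± 10.0 CPM in knockout cells, against 45.9 ± 4.53 CPM in vector cells (SD, n = 3 each, log2 fold change 1.18). IRAK4, the first kinase of the receptor complex, rose to 29.6 ± 1.29 CPM, against 17.9 ± 0.846 CPM (0.73), and IKBKB, a kinase of the NF-kB inhibitor, rose to 14.9 ± 1.39 CPM, against 10.6 ± 0.779 CPM (0.49). UBE2N, a ubiquitin-conjugating enzyme, fell to 45.5 ± 2.99 CPM, against 60.3 ± 4.16 CPM (−0.41). The adaptor MYD88 had 59.8 ± 1.54 CPM in knockout cells and 57.5 ± 0.692 CPM in vector cells and was not called.

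The adjusted p of those 4 named genes ran from 4.89e-04 to 0.0219 (edgeR quasi-likelihood test). Without knockout replicates 1 or 3, or without vector replicate 3, 2 genes of this list were called higher, and IKBKB was lost (edgeR adjusted p 0.0785, 0.0849 and 0.0804). IKBKB was also lost with limma on log2(FPKM + 1) and log2(FPKM + 0.1) (limma adjusted p 0.0519 and 0.0533). UBE2N was lost without knockout replicates 1, 2 or 3 and without vector replicate 3 (edgeR adjusted p 0.0692, 0.0505, 0.0528 and 0.0760).

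Genes that process or release these cytokines moved in both directions. Of 32 listed, 30 were in the table, 23 were tested, 7 rose and 5 fell, with a median log2 fold change of 0.05. Shares of 17.8% higher and 17.4% lower were called over all tested genes. CARD18, counted among those that rose, passed the low-count filter through the knockout group only. CASP1, the protease that cuts the precursors of IL-1β and IL-18, had 116, 127 and 126 CPM in the knockout libraries, against 52.2, 56.4 and 57.3 CPM in the vector libraries. It rose in clear separation, with a log2 fold change of 1.15 (standard error 0.094, edgeR quasi-likelihood adjusted p = 1.88e-04), so RNA of this protease and of IL1B differed in opposite directions. GSDMC, a member of the pore-forming gasdermins, rose to 2.18 ± 0.312 CPM in knockout cells, against 0.602 ± 0.103 CPM in vector cells (SD, n = 3 each, log2 fold change 1.84). GSDMC had 12, 8 and 9 counts in the vector libraries and passed the low-count filter through the knockout group only.

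GSDME, a gasdermin opened by caspase-3, fell to 43.7 ± 0.313 CPM in knockout cells, against 79.8 ± 3.0 CPM in vector cells (SD, n = 3 each, −0.87). NLRP10, a NOD-like receptor of epidermis, fell to 0.330 ± 0.167 CPM, against 4.12 ± 1.25 CPM (−3.60). NLRP10 had 7, 2 and 6 counts in the knockout libraries and passed the low-count filter through the vector group only. The inflammasome genes NLRP3, AIM2, CASP5 and MEFV were too low to be tested. Of this list, 2 genes were called higher without knockout replicate 3 or vector replicate 3, and 3 were called lower without vector replicate 3.

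A list of genes that IL-1 or IL-36 is known to induce in epithelia, chosen with earlier results known, leaned downwards. Of 30 listed, 29 were in the table and 20 were tested. Of these, 12 fell, 3 rose and 5 were not called, with a median log2 fold change of −1.08. Over all tested genes 35.1% were called, 17.8% higher and 17.4% lower. CXCL1 and MMP1, counted among the 12, passed the low-count filter through the vector group only. CCL20, a chemokine, had 2.10, 1.49 and 1.62 CPM in the knockout libraries, against 13.9, 14.8 and 13.8 CPM in the vector libraries (−3.02, edgeR quasi-likelihood adjusted p = 3.92e-05). The groups were widely apart with little spread in either.

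LCN2, an iron-scavenging lipocalin, fell to 158 ± 38.1 CPM in knockout cells, against 1417 ± 350 CPM in vector cells (SD, n = 3 each, −3.17). The adhesion molecule ICAM1 fell to 11.5 ± 1.09 CPM, against 28.5 ± 1.59 CPM (−1.31), and the cytokine IL32 to 1.13 ± 0.435 CPM, against 12.4 ± 3.72 CPM (−3.46). The 3 genes that rose were S100A7, S100A8 and S100A9, calcium-binding proteins also made in keratinocyte differentiation. S100A8 had 888 ± 300 CPM in knockout cells and 167 ± 34.4 CPM in vector cells (2.41), the largest of these rises. NFKBIA, the gene of the NF-kB inhibitor IκBα, had 71.1 ± 3.03 and 66.7 ± 4.49 CPM and was not called. Of the 9 squamous markers, KRT5, KRT14, KRT6A and DSG3 rose as well, EPCAM fell (−0.72) and 4 were not called, KRT17 (−0.23) among them. The part of these markers in the rise of the S100 genes was not tested.

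Transcription factors known to act at promoters of these cytokines were read as a further list. Of 22 listed, 21 were tested, 8 fell, 2 rose and 11 were not called, with a median log2 fold change of −0.21, and over all tested genes 35.1% were called and 17.4% fell. ATF3, a stress-induced factor, fell to 38.2 ± 1.14 CPM in knockout cells, against 83.8 ± 4.42 CPM in vector cells (SD, n = 3 each, −1.13). The AP-1 subunits JUN and FOSL1 fell to 58.4 ± 3.34 and 56.9 ± 4.43 CPM, against 133 ± 10.2 and 132 ± 16.4 CPM (−1.18 and −1.21). FOS and JUND fell as well (−0.60 and −1.26). The AP-1 subunits of highest CPM, JUNB and FOSL2, were not called (−0.13 and −0.02). JUNB had 343 CPM in knockout and 375 CPM in vector cells on average, and FOSL2 had 292 and 296 CPM. NFKB2, an NF-kB subunit of the non-canonical branch, fell to 29.5 ± 3.28 CPM, against 85.8 ± 12.3 CPM (−1.54). The canonical subunit RELA had 107 ± 5.53 and 107 ± 7.24 CPM and was not called, with a log2 fold change of 0.01.

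The adjusted p of ATF3, JUN, FOSL1 and NFKB2 ran from 2.08e-04 to 5.27e-04 (edgeR quasi-likelihood test). The factors that rose were CEBPA, which acts in epithelial differentiation, and KLF4, a factor of the upper epidermis, with log2 fold changes of 0.99 and 0.62. KLF4 lost its call with library size as the only scaling (0.58) and without knockout replicates 1 or 3 (0.59 and 0.51). It also lost its call without vector replicates 2 or 3 (0.53 in both), and each of these fits left 1 factor called higher. In the limma fits on log2(FPKM + 1) and log2(FPKM + 0.1), 1 factor was called higher as well.

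Most of these genes sit in a pair of clusters on chromosome 2 (RefSeq positions on GRCh38). IL1A (112773925 to 112784493), IL1B (112829751 to 112836779), IL36G (112978006 to 112985658), IL36B, IL36RN and IL1RN (113099360 to 113134014) lie in the first. IL1R2 (101991960 to 102028544) and IL1R1 (102070390 to 102179874) lie in the other, next to IL1RL2, IL1RL1 and IL18R1. IL18 lies on chromosome 11 (112143260 to 112164094) and IL33 on chromosome 9 (6215149 to 6257983).

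Called and uncalled genes stood side by side within both clusters. Between IL1B and IL36G, which fell, IL37 was not called (log2 fold change −0.67, edgeR quasi-likelihood adjusted p = 0.199), and beyond IL36G neither IL36A (0.12), IL36RN (0.28), IL1F10 (−0.25) nor IL1RN (0.27) was called. The value of IL36A was below 0 without knockout replicate 3 or vector replicate 2. Outside the cluster, CKAP2L beside IL1A had −0.17 and PSD4 beside IL1RN had 0.03, neither called, and each turned sign in some settings.

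For comparison with the neighbours of both clusters, 17.4% of all tested genes were called lower and 17.8% higher. Of the 21 tested neighbours within 1 Mb of the first cluster, edgeR called 4 lower and 0 higher, as many as DESeq2. At an unadjusted edgeR p under 0.05, 1 was higher. Those that fell were MERTK, POLR1B, SLC20A1 and NT5DC4, the last not called without knockout replicate 1 (−1.46) or vector replicate 3 (−1.36), and the median log2 fold change of the neighbours was −0.11. Around the second cluster, 13 neighbours were tested, 3 rose and 3 fell, with a median of 0.10. There IL1R2 with −2.91 lay between MAP4K4 with 0.17, not called, and IL1R1 with 0.69.

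**Figure D4:**
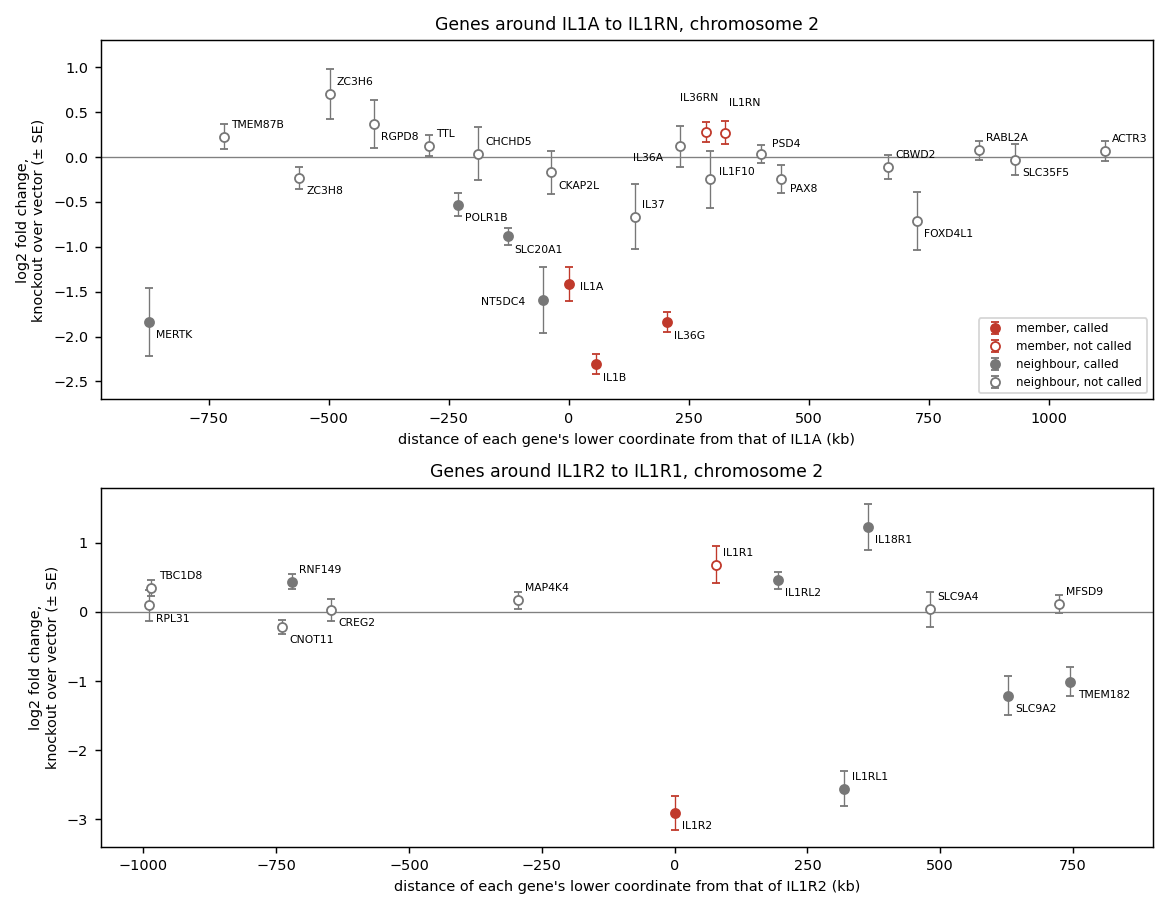
Log2 fold change, knockout over vector, with standard errors (vertical axis) against the distance in kb from IL1A (upper panel) or IL1R2 (lower panel), for tested genes within 1 Mb of each cluster. Those of the 10 genes that were tested and lie in these clusters are red and neighbours grey, filled where called. IL1A, IL1B and IL36G lie between −2.31 and −1.42 among genes whose median is near 0, and called genes of both directions stand side by side around IL1R2.

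The transcript table held 46 transcripts of the 10 genes, of which 17 were tested and 7 were at 0 in all libraries. Of those tested, 3 were called, all lower, against 2.25% of 40948 transcripts tested over all genes, 1.17% higher and 1.08% lower. They were IL1B NM_000576.3 (log2 fold change −2.30), IL36G NM_019618.4 (−1.82) and IL1A NM_000575.5 (−1.44), the main transcript of each gene (edgeR quasi-likelihood adjusted p = 0.00499, 0.00499 and 0.0347). By edgeR 0 were called higher, and 2 were higher at an unadjusted p under 0.05. All 3 calls were lost without knockout replicates 1 or 3 and without vector replicates 2 or 3.

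IL1RN makes an intracellular and a secreted antagonist from different starts, which bears on where the protein acts. The share of IL1RN counts on NM_000577.5, with 159 codons and the intracellular start, was 78.8%, 81.4% and 77.0% in the knockout libraries, against 72.6%, 80.6% and 78.7% in the vector libraries. The groups overlapped, so most IL1RN RNA was of this form in both. The secreted form NM_173842.3, with 177 codons starting at position 113127561, downstream of the others, held 1.05%, 1.77% and 2.30% in the knockout libraries, against 3.0%, 3.61% and 3.15% in the vector libraries. Its share was lower in each knockout library, with means of 1.71 ± 0.629% and 3.25 ± 0.317% (SD, n = 3 each, exact permutation p = 0.1), and its own level was not called (log2 fold change −0.67, edgeR quasi-likelihood adjusted p = 0.615).

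Codon numbers and starts came from GENCODE release 29 on GRCh38, matched by RefSeq accession without its version. With single-end reads of 50 bases, the split of reads between transcripts that share exons is an estimate. IL36RN shows its limit: NM_012275.3 held 36.6%, 48.5% and 80.2% of its counts in the knockout libraries, against 59.6%, 84.4% and 49.4% in the vector libraries, with more spread inside the groups than between them. For IL18, NM_001562.4 with 193 codons held 93.0 ± 0.649% in knockout cells and 91.7 ± 0.526% in vector cells (SD, n = 3 each). Reads of IL1R1 and IL1R2 were split over transcripts that differed from library to library, and no share is given for them.

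**Figure D5:**
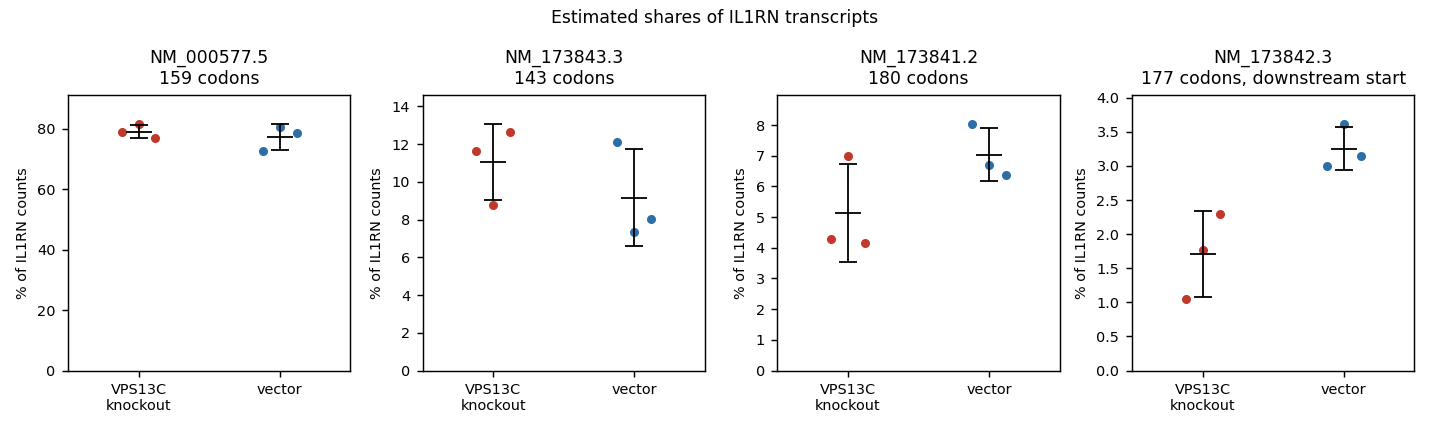
Share of IL1RN counts in percent (vertical axis, starting at 0) estimated for 4 transcripts, in 3 knockout libraries (red) and 3 vector libraries (blue), with mean and SD. The transcript with 159 codons holds most counts in both groups, and the one with 177 codons and the downstream start averages 1.71% in knockout libraries and 3.25% in vector libraries.

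Other genes followed IL1A, IL1B and IL36G closely over the 6 libraries. Likeness was the root mean square difference of log2 CPM, centred per gene, among 11404 genes with a mean of at least 5 CPM. Among the nearest to IL1A were TIPARP, an ADP-ribosyltransferase (0.0895), and NT5E, a nucleotidase of the cell surface (0.0953). Nearest to IL1B were DKK1, a secreted Wnt antagonist (0.0620), DUSP1, a MAP kinase phosphatase (0.109), and SRPX2 (0.114). Nearest to IL36G were PSG5, a pregnancy-specific glycoprotein (0.0602), OSBP2, an oxysterol-binding protein (0.0685), and the homeobox gene NKX1-2 (0.0749).

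Within the family, IL36G was the nearest to IL1B, at place 34 of 11404 with 0.219, and IL1B was at place 57 for IL36G. IL1A was less like either, and stood at place 155 for IL1B (0.454) and 95 for IL36G (0.259). IL18, IL1RN and IL36RN stood at places 7916 to 9163 for the 3 agonists. These places describe 6 libraries in 2 groups, so genes of like group difference stand close.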

How the data were processed

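RNA-seq of 6 libraries was analysed, 3 of VPS13C knockout and 3 of vector cells. The labels' protocols give single-end reads of 50 bases from a DNBSEQ platform, and hg38 is the build in the submitters' processing notes. Which aligner, counter and strand setting were used is not given in the sources used here. Deposited by the authors was an expected count per gene and per transcript, rounded here and used for all tests. The deposited TPM values, scaled by length, gave levels and ratios, and the FPKM values of the authors served an alternative and gave gene lengths. A column of normalized signal by the authors was not used.

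Tests used edgeR 4.0.16 (R 4.3.3; filterByExpr with minimum count 10, TMM factors, quasi-likelihood F-test, Benjamini-Hochberg adjustment over all features tested, called under 0.05). CPM used TMM-scaled library sizes. A standard error was the size of the log2 fold change divided by the root of F. Ratios were tested with exact two-sided permutation in scipy 1.17.1. The fits were tested on simulated data.

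Alternatives to these settings were other scaling (RLE, upper-quartile or library size alone), other tools (DESeq2 1.42.0, and limma 3.58.1 with voom or on log2(FPKM + 1 or 0.1)), other filters (none, or 10 CPM in 3 libraries), a block for the replicate number, removal of each library's loess trend on gene length (92.2% of tested genes had one), and leaving out each library. The 10 genes and all gene lists were chosen with earlier results of these data known. Named from each list were up to 4 called genes with the smallest p, with the neighbours of the 10 genes and the 3 genes of nearest pattern, of which 1 is not reported here. Other genes were picked after their values were seen. Genes of the lists that are not in the table were not analysed here.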

Additional observations from a re-analysis of the deposited data

How the results depend on the processing

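IL1A, IL1B and IL36G kept their direction and call in all 18 alternatives, with log2 fold changes from −1.55 to −1.25, −2.36 to −2.16 and −1.92 to −1.79. IL1R2 kept both in the 17 in which it was tested (−3.20 to −1.64). IL18 ran from 0.38 to 0.47 and lost its call in 1. IL1RN (0.15 to 0.34), IL36RN (0.22 to 0.34) and IL1R1 (0.26 to 0.85) kept their direction. The 3 ratios kept their direction in every alternative run.

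Over all genes, leaving out 1 library gave 1551 to 2552 genes called higher and 1475 to 2491 called lower, with the low ends without knockout replicate 3 (vector replicate 3 gave 1582 and 1521). Of the 10 genes, 0 to 1 were then called higher and 4 lower, and of their transcripts 0 to 2 were called lower. With the length trend removed 2 of the 10 were called higher, IL1RN added. Replicate numbers paired the libraries only in part. Deviations from the group means correlated at 0.65 and 0.68 between same-numbered libraries for replicates 1 and 2, the best match of each. For replicate 3 the value was −0.22, and knockout replicate 3 correlated best with vector replicate 1 (0.39). With the replicate block 4049 genes were called higher and 3890 lower, and 4254 and 4170 with the length trend also removed. Of the signalling genes 7 were then higher and 4 lower, and 9 and 4 with the trend removed. In both block fits 4 of the 10 were higher, IL1RN, IL36RN and IL1R1 added (edgeR adjusted p = 0.0121, 0.0358 and 0.00560 with the block alone).

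Signs turned for 3 uncalled neighbours. Leaving out 1 library gave −0.31 to 0.044 for CKAP2L (above 0 without knockout replicate 2, 0.022, and vector replicate 1), −0.036 to 0.34 for IL36A (below 0 without knockout replicate 3 and vector replicate 2, −0.021), and −0.0099 to 0.067 for PSD4 (below 0 without knockout replicate 2, −0.0065, and vector replicate 1). PSD4 also had −0.0025 with library size only and −0.039 with the length trend removed, with and without the replicate block. The cause of these shifts was not tested. At these depths IL33 and IL36B could not be tested, and without the low-count filter their differences were not called.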
